A study of Caenorhabditis elegans with 45 samples.

Results

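Many genes of *Caenorhabditis elegans* are still known only by the genomic clone on which they were found, such as Y38E10A.9. The 100 genes described here are clone-named genes whose transcripts were lower on day 10 of adulthood than on days 4 and 5 in both of the sterile strains studied. They were chosen by this change itself. A minimum mean of 1 over all 45 libraries, on the natural log scale of the deposited values, left 8554 clone-named genes. For these, the mean of the 257 h libraries minus the mean of the 117 and 137 h libraries was taken in each strain, the larger of the FEM and GEM changes was kept for each gene, and the 100 genes with the lowest value were retained. The table holds 14526 clone-named genes among 25985 genes, and 16925 genes of any name passed the same minimum and were tested. The current annotation (Ensembl release 115, WBCel235) gives 12 of the 100 genes a name, close to the 11% of the clone-named genes past the minimum that have one, so the label uncharacterized holds for most but not for all of them.

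RNA from whole adult worms was sequenced in 23 FEM and 22 GEM libraries, with 2 or 3 libraries for each strain and age. FEM animals carry *fem-3(q20)*, a temperature-sensitive allele that masculinizes the germline, so that the animals make sperm but no oocytes and are all sterile. GEM animals carry *gon-2(q388)* and *gem-1(bc364)*, which stop the gonadal precursor cells from dividing in most but not all animals. Because this arrest is incomplete, fertile GEM animals had to be removed by hand, and some of those kept still had remnants of a gonad. Both strains were raised at the restrictive temperature on HT115 *E. coli* with the empty vector L4440. Age was counted in hours post feeding. Worms of day 1 of adulthood were harvested at 41 h and again at 49 h, those of day 2 at 65 h and 73 h, and those of day 3 at 89 h and 97 h. The 3 later harvests were at 117 h (day 4), at 137 h (day 5), and at 257 h (day 10). Libraries held an estimated 12836782 to 43287753 reads assigned to genes, and replicates correlated at 0.978 to 0.992 over 36 pairs. One library, FEM 89 h replicate 2, stood apart for these genes, with a median level of 8.37 against 9.10 and 9.07 in the other replicates of its group. The FEM libraries of 257 h, which entered the choice of the genes, lay farther apart, with medians of 4.59 and 5.57, hypodermis and cuticle markers at a mean of 5.73 and 8.68, and body wall muscle markers at 10.32 and 11.42. The part of this in the choice was not tested. Another 2 libraries, GEM 41 h replicate 3 and GEM 49 h replicate 1, stood apart for genes that lie across the strand from another gene. Over 72 such genes, the level relative to the partner had an SD between genes of 1.38 and 1.44 in these libraries, after the median over libraries was removed, against 0.25 to 0.59 in the other 43. Levels and differences are given throughout on the scale log2(normalized count + 1).

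Adult worms rely on the intestine for digestion, fat storage, defense against ingested bacteria, and the synthesis of yolk, and the transcripts of secreted and digestive proteins are among the most abundant of the adult. Genes without a given name are often members of families that expanded in nematodes, and few have a mutant phenotype. Because whole worms were sequenced, fewer cells of a type and less RNA per cell cannot be told apart in any value below.

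The late fall was deep in both strains. The difference between day 10 and days 4-5 had a median of -2.88 over the 100 genes in FEM animals (range -5.44 to -1.73) and of -2.22 in GEM animals (range -4.94 to -1.72), against medians of -0.04 and 0.26 over all 16925 genes. These differences chose the genes and were not tested. The fall was larger in FEM animals for 70 genes and larger in GEM animals for 30. The median over all genes was likewise lower in FEM animals (-0.04 against 0.26). As normalized counts, day 10 was a median of 7.63-fold below days 4-5 in FEM animals and 4.71-fold below in GEM animals, with genes at 0 on day 10 placed at the bound that 3 reads allow, and 88 and 60 genes were at least 4-fold lower. Both day 10 libraries lay below all 4 libraries of days 4-5 for 96 genes in FEM animals (25.5% of all genes), for 99 in GEM animals (13.2%), and for 95 in both (7.89%). The 5 exceptions were F11A5.17, F44A2.7, Y71F9AL.7, F54D10.8, and K09C6.9, named here after their values were seen.

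The ages before day 10 show the course that came before the fall, while the low level at 257 h follows from the rule. In FEM animals the median level of the 100 genes, from the youngest to the oldest age, was 8.45 ± 0.14, 8.97 ± 0.06, 9.20 ± 0.03, 9.29 ± 0.10, 8.85 ± 0.41, 8.88 ± 0.06, 8.74 ± 0.11, 8.08 ± 0.02, and 5.08 ± 0.69 (SD, n = 2 or 3). In GEM animals it was 8.31 ± 0.02, 9.13 ± 0.17, 9.25 ± 0.12, 9.40 ± 0.15, 9.14 ± 0.04, 9.24 ± 0.06, 8.58 ± 0.02, 8.04 ± 0.12, and 5.59 ± 0.19. The median moved by about 1 log2 unit over the first days and was lowest by far at 257 h in both strains. From 137 h to 257 h, both ages of the rule, the median difference was -2.54 in FEM and -2.10 in GEM animals. All 100 genes were lower in both, while the median over all genes was 0.01 and 0.12. The step between 117 and 137 h was smaller, with a median of -0.56 in FEM animals and -0.41 in GEM animals, and 85 and 91 genes were lower at 137 h, against 64.5% and 30.9% of all genes. By the rule, no gene of the list could be highest at 257 h in either strain. Of all genes, 25.8% in FEM and 43.3% in GEM animals were highest there. In FEM animals 25 genes of the list were highest at 49 h (10.0% of all genes) and 16 at 41 h (19.7%). In GEM animals 33 were highest at 73 h (4.73%) and 25 at 49 h (10.3%). The 100 genes together took 0.0823 to 0.128% of all normalized counts in FEM animals at 257 h, against 0.616 to 0.824% on days 4 and 5, and 0.127 to 0.176% in GEM animals at 257 h, against 0.555 to 0.956%.

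**Figure D1:**
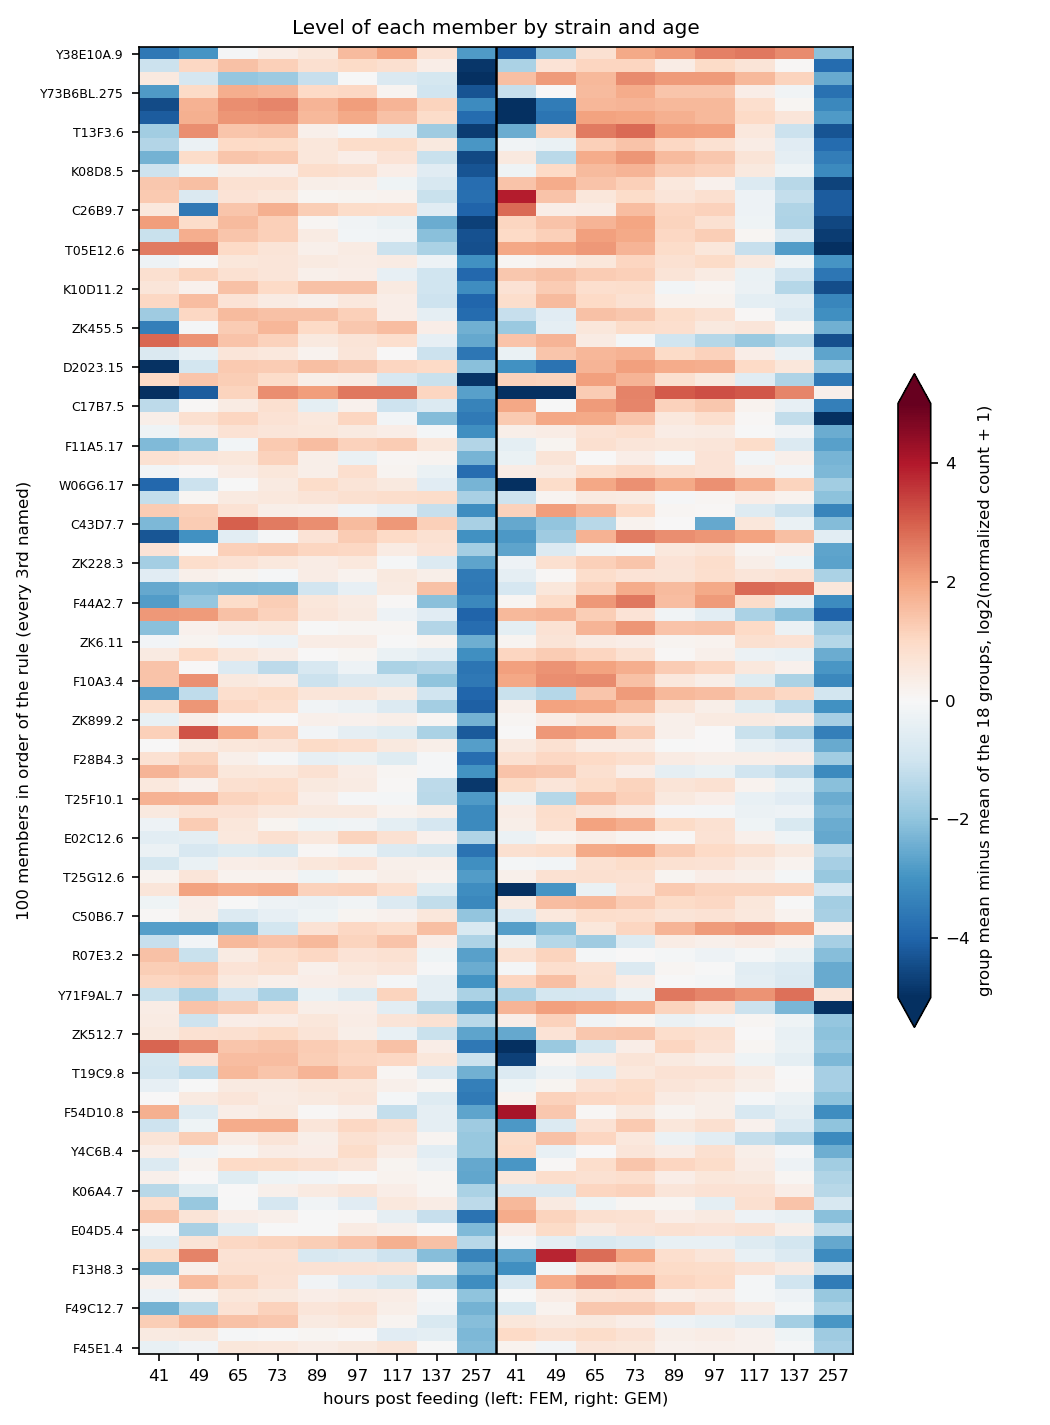
Level of each of the 100 genes (down the page, in the order of the rule, every 3rd gene named) by strain and age in hours post feeding (FEM left, GEM right), as the group mean minus the mean of the 18 groups on the log2(normalized count + 1) scale, with colors ending at 5 either way. The column at 257 h is the darkest blue in both strains, while the columns at 41 and 49 h differ from gene to gene.

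**Figure D2:**
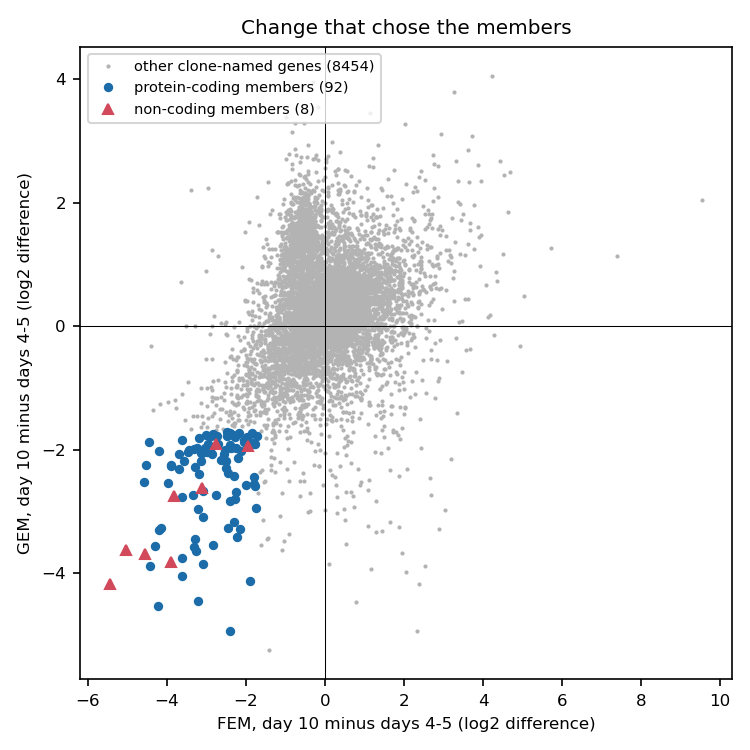
Difference between day 10 and days 4-5 (log2) in FEM animals (x axis) and GEM animals (y axis) for the 8554 clone-named genes past the minimum. The 92 protein-coding genes of the list (circles) and its 8 non-coding genes (triangles) fill the lower left corner by construction, and 3 of the 4 lowest FEM values belong to non-coding genes.

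The gene with the lowest value of the rule was Y38E10A.9 (chromosome II, 12608953 to 12609648), which has only 231 coding bases and no name in the annotation. In FEM animals it stood at 1.90 and 1.89 at 257 h, against 6.78 and 6.72 at 117 h and 6.29 and 4.66 at 137 h. In GEM animals it stood at 2.91 and 2.51 at 257 h, against 7.49 and 7.29 at 117 h and 7.16 and 7.07 at 137 h. The groups did not overlap in either strain, and the differences were -4.22 and -4.54. Y38E10A.9 was as low in the youngest adults as in the oldest, at 0.00, 1.49, and 2.05 in FEM and 0.92, 0.00, and 0.84 in GEM animals at 41 h, so that its transcript was high only between 65 and 137 h by group mean.

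F55G11.2 (IV, 12967445 to 12969289) was at 0.00 and 3.77 in FEM animals at 257 h, against 6.64, 6.15, 6.0, and 6.46 at 117 and 137 h, and at 5.22 and 3.92 in GEM animals, against 8.66, 8.77, 7.63, and 8.76. The FEM libraries of day 10 lay far apart for this gene, with no read in replicate 1, but both were below all 4 earlier ones. T13F3.6 (V, 16270300 to 16271221) was at 4.96 and 6.03 in FEM animals, against 9.23, 10.30, 8.76, and 8.18, and at 6.41 and 5.44 in GEM animals, against 10.71, 10.85, 9.25, and 9.10. F46F2.3 (X, 15259579 to 15260287) was at 7.96 and 8.41 in FEM animals, against 12.93, 13.85, 12.06, and 11.12, and at 8.86 and 9.62 in GEM animals, against 13.33, 13.39, 11.67, and 12.84. All day 10 libraries of these genes were below all libraries of days 4 and 5, and none of them has a name in the annotation. C04E12.5 and K08D8.5, also among the 10 lowest, differed by -3.61 and -4.20 in FEM animals and by -3.76 and -3.31 in GEM animals. The other 4 of the 10 lowest (C05E11.15, Y73B6BL.275, T27A10.8, and F59D8.3) are non-coding and are described with the genes they overlap.

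At the edge of the list, the larger change was -1.74 for K09C6.9, -1.73 for K11G9.2, and -1.72 for F45E1.4 just inside, and -1.72 for ZK1321.4, -1.70 for W10G11.3, and -1.68 for K03H6.2 just outside. The edge thus separates genes with nearly the same change, and ZK1321.4 and F45E1.4 have the same value to 2 decimals.

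Several genes were at or near 0 on day 10, where a fold is only a bound. Both GEM libraries of 257 h held no read of T20D4.3, H25K10.1, ZK899.3, or F54D10.8, and both FEM libraries none of ZK899.3 or Y71F9AL.7. At a floor of 3 reads per library, T20D4.3 was at least 14.7-fold lower in GEM animals on day 10 than on days 4-5 and H25K10.1 at least 8.52-fold lower. ZK899.3 was at least 2.28-fold lower in FEM animals and at least 1.98-fold lower in GEM animals, F54D10.8 at least 2.01-fold lower in GEM animals, and Y71F9AL.7 at least 1.62-fold lower in FEM animals. In each strain 19 of the 100 genes had 10 or fewer reads in both day 10 libraries. These floors cover counting error only.

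The most abundant genes of the list also fell. T21H3.1 (V, 1176724 to 1178864) has no name in the annotation and the highest mean level of the list, at 14.80. In FEM animals it was at 11.66 and 11.73 at 257 h, against 15.18, 14.83, 14.70, and 15.31 on days 4 and 5. In GEM animals it was at 13.45 and 12.68, against 14.99, 15.34, 14.71, and 15.15. The groups were far apart in both strains, the more so in FEM animals. F13D12.6, named *ctsa-1.2* in the annotation for its likeness to cathepsin A, a lysosomal carboxypeptidase, was at 9.91 and 9.84 in FEM animals at 257 h, against 13.91, 13.69, 13.07, and 13.62, and at 11.46 and 11.37 in GEM animals, against 13.86, 13.96, 13.35, and 13.75. F28B4.3, at a mean level of 13.28, differed by -3.47 in FEM and -2.04 in GEM animals. F11E6.3 (*epic-1*) and K08D12.6 (*epic-2*), the others among the 5 highest, differed by -2.87 and -3.12 in FEM animals and by -2.07 and -2.06 in GEM animals. Per kilobase of exon, the mean normalized count of these 5 genes was 34446 for T21H3.1, 25821 for F11E6.3, 12459 for K08D12.6, 10106 for F13D12.6, and 1778 for F28B4.3.

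**Figure D3:**
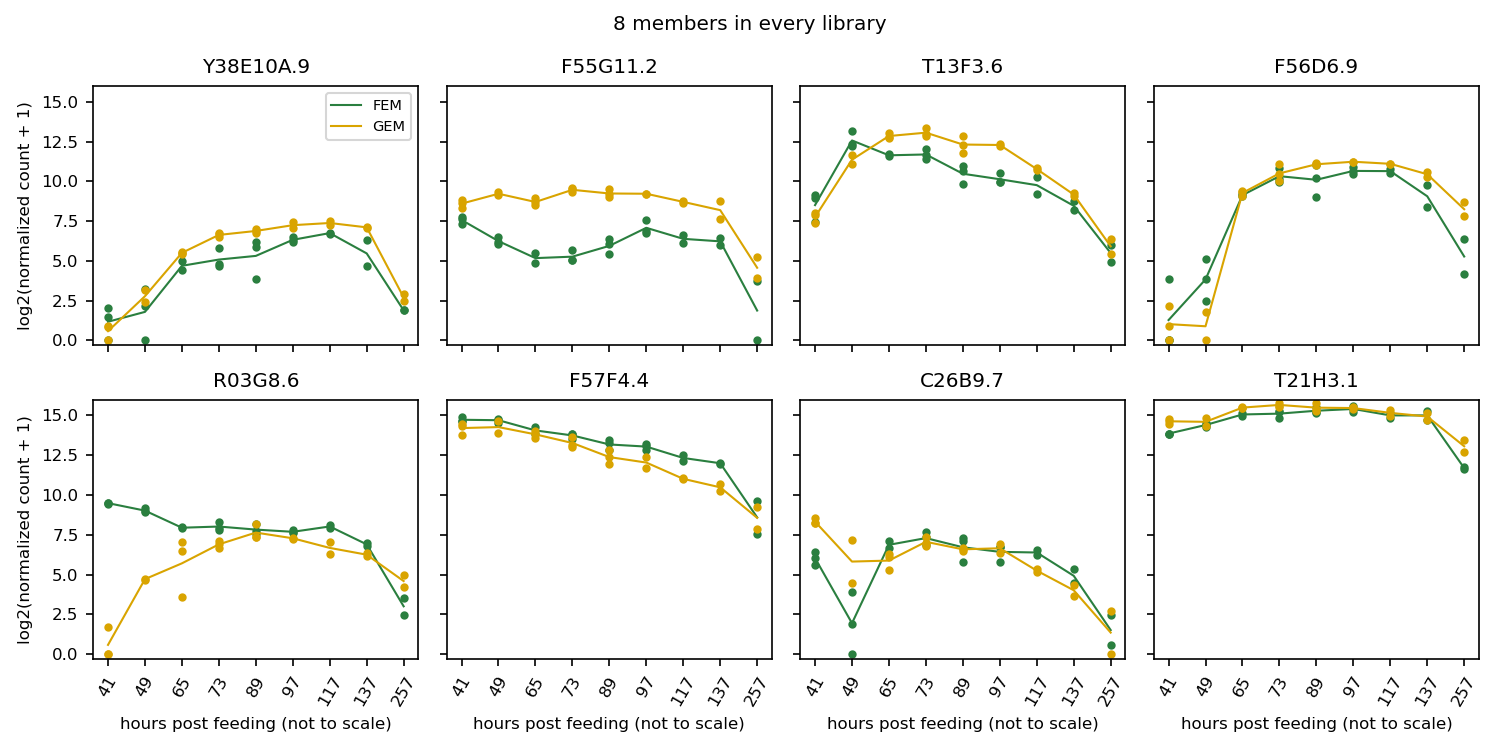
Level of 8 genes of the list (log2(normalized count + 1), y axis) in every library by age in hours post feeding (x axis, not to scale), with FEM and GEM libraries as points and group means as lines. All fall at 257 h. Before that Y38E10A.9 and F56D6.9 start near 0, and F57F4.4 is lower on day 3 than on day 1. R03G8.6 starts high in FEM and near 0 in GEM animals, and before 257 h T21H3.1 stays between 13.85 and 15.81.

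The genes that now carry a name are few and varied. The carboxylesterase family, enzymes that split ester bonds, gave C42D4.2 (*cest-10*), ZC376.2 (*cest-2.2*), and K11G9.2 (*cest-31*), with day 10 differences of -2.77, -3.0, and -1.73 in FEM animals and of -2.74, -1.76, and -1.79 in GEM animals. T24B8.5 (*sysm-1*), whose promoter is widely used as a reporter of the intestinal PMK-1 immune pathway, differed by -3.90 and -2.27, and ZK6.11 (*irg-8*), of an infection response class, by -2.50 and -2.18. F57F4.4 (*bcf-1*), which encodes a large gut glycoprotein of 6270 coding bases, differed by -3.57 and -2.19. LLC1.2 (*nspg-9*), of a nematode-specific peptide family, differed by -3.61 and -1.85, R07E3.2 (*idpa-3*), of a family of intrinsically disordered proteins of the pharyngeal cuticle, by -2.97 and -1.92, and T20D4.5 (*txt-11*) by -3.08 and -2.67 (FEM before GEM in each case).

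Markers of other tissues differed in direction by tissue and strain on day 10. The 8 intestine markers present in the table (among them *elt-2*, *ges-1*, and *act-5*) summed to 36857 and 48008 normalized counts in FEM animals at 257 h, against 94941 to 131144 on days 4 and 5, and to 33964 and 38196 in GEM animals, against 65798 to 95944. Their median difference was -1.18 in FEM and -0.89 in GEM animals. Both day 10 libraries were below all those of days 4 and 5 for 3 and 6 of the 8 (25.5% and 13.2% of all genes). In FEM animals 1 of the 8 had both above them. The 7 body wall muscle markers had median differences of -0.79 and -0.67, with sums of 12268 to 28246 against 38157 to 87223 in FEM animals and of 28243 to 37222 against 50579 to 65588 in GEM animals. The 8 hypodermis and cuticle markers had median differences of 0.85 in FEM and -2.79 in GEM animals. At 257 h their mean level was 5.73 and 8.68 in the FEM libraries, against 5.75 to 7.88 on days 4 and 5. Only replicate 2 was thus higher than on those days. Their sums were 2426 to 5697 against 3231 to 9360 in FEM animals and 6924 to 8267 against 7797 to 10923 in GEM animals. Without overlap, 1 of the 8 was lower and 2 were higher in FEM animals, and 5 were lower and 1 higher in GEM animals. The 8 molting markers had medians of 0.79 and -1.19. Their mean level was 6.35 and 7.43 in the FEM libraries of 257 h, against 5.62 to 6.70 on days 4 and 5, with replicate 2 alone above that range. Their sums were 1273 to 2068 against 875 to 1243 in FEM animals, where 2 of the 8 were higher without overlap. In GEM animals the sums were 796 to 808 against 1310 to 2326, and 7 of the 8 were lower without overlap. The germline and embryo lists had medians of opposite sign to those of the hypodermis and molting lists. They were -0.56 and 0.43 for the 9 oocyte markers, -0.54 and 0.71 for the 8 sperm markers, and -0.09 and 0.25 for the 8 embryo markers. The 7 pharynx markers had medians of 0.13 and -0.14, and the 9 neuron markers of 0.31 and 0.07 (FEM before GEM throughout). At 257 h the embryo marker *med-1* was at 0 in both strains and *hlh-27* in GEM animals, and no marker of the other lists was at 0 in both libraries of a strain. The part of these markers in the fall of the 100 genes was not tested.

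The libraries of 41 to 97 h entered the choice of the genes only through the minimum mean over all 45 libraries. The changes between these ages were tested with limma (Benjamini-Hochberg adjustment over 16925 genes, threshold 0.05). Between day 3 (89 and 97 h) and day 1 (41 and 49 h), the genes did not move in a single direction. In FEM animals 50 of the 100 were higher on day 3, 26 were lower, and 24 did not pass, with 38.6% of all genes higher and 20.5% lower. Their median difference was 0.46, against 0.24 over all genes. In GEM animals 41 were higher, 29 were lower, and 30 did not pass, with 50.5% of all genes higher and 21.5% lower, and the median was 0.29, against 0.52 over all genes. In the same span the mean level of the 9 oocyte markers in GEM animals was 12.07 to 13.81 in the libraries of day 3, against 3.18 to 6.64 on day 1, and the GEM split depends on how the libraries are scaled. With quantile normalization 31 genes of the list were higher and 40 lower in GEM animals, and with each library centered on its median 28 were higher and 43 lower, as the median of all genes became -0.11 and -0.08. The FEM split was 43 higher and 27 lower, and 40 and 30.

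In both strains 33 genes were higher on day 3 and 19 were lower. The 33 had median differences of 1.71 in FEM and 1.80 in GEM animals, and the 19 had medians of -1.17 and -1.11. A further 13 were higher and 6 lower in FEM animals alone past the threshold, 7 were higher and 6 lower in GEM animals alone, and 11 passed in neither. The remaining 5 passed in opposite directions. R03G8.6 was lower in FEM and higher in GEM animals, and K10D11.2, R10H10.3, R07E3.2, and C06B8.2 were higher in FEM and lower in GEM animals. Of all genes tested, 29.0% were higher in both strains, 13.9% lower in both, and 2.07% and 1.28% passed in opposite directions. Without the 2 GEM libraries of day 1 that stood apart, 44 genes of the list were higher and 27 lower in GEM animals.

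F56D6.9 (IV, 3892327 to 3893326) rose the most in both strains. On day 3 it stood at 9.03 to 11.05 in FEM animals (median 10.55, n = 6), against 0.00 to 5.12 on day 1 (median 3.17, n = 6), and at 11.09, 11.14, 11.01, 11.22, and 11.25 in GEM animals, against 0.92, 2.16, 0.00, 1.79, and 0.00. All day 3 libraries were above all day 1 libraries, by 7.82 ± 0.51 in FEM animals (SE, limma, adjusted p = 1.75e-14) and by 10.20 ± 0.57 in GEM animals (adjusted p = 7.31e-17). Of its 948 exonic bases, 237 lie in exons of *oac-21* on the same strand. In FEM animals *oac-21* averaged 3.35 at 117 h and 3.72 at 137 h, and F56D6.9 averaged 9.86 over both ages. The part of shared reads in the rise was not tested. T24B8.5 (*sysm-1*) also rose in both strains, to 11.12 to 12.94 on day 3 in FEM animals, against 6.51 to 8.45 on day 1, and to 13.21, 13.42, 13.24, 13.13, and 13.19 in GEM animals, against 8.37, 7.95, 7.91, 8.81, and 9.58. The differences were 4.64 ± 0.23 (SE, limma, adjusted p = 3.66e-17) and 4.59 ± 0.26 (adjusted p = 1.48e-16). Its level was higher in GEM animals at each age from 41 to 257 h by group mean.

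The genes that fell over the first 3 days included abundant ones. F57F4.4 (*bcf-1*) was at 12.81 to 13.45 on day 3 in FEM animals (median 13.16), against 14.56 to 14.90 on day 1 (median 14.69), and at 11.92, 12.84, 12.39, 11.67, and 12.41 in GEM animals, against 14.48, 14.34, 13.79, 13.91, and 14.63. It fell by 1.61 in FEM animals (SE 0.24, limma, adjusted p = 1.04e-06) and by 2.03 in GEM animals (SE 0.27, adjusted p = 4.08e-08), and its decline went on through 117 and 137 h before the drop at 257 h. C42D4.2 (*cest-10*) stood at 4.53, 5.01, 5.01, 4.36, and 4.46 on day 3 in GEM animals, against 6.36, 7.42, 8.09, 7.30, and 7.80 on day 1, with no overlap, and fell by 2.79 (SE 0.39, limma, adjusted p = 1.25e-07). In FEM animals it fell by 1.99 (SE 0.35, adjusted p = 1.40e-05). F10A3.4 was at 5.38 to 7.14 on day 3 in FEM animals (median 6.51), against 8.66 to 9.82 on day 1 (median 9.15), and fell by 2.75 (SE 0.34, limma, adjusted p = 2.70e-08). K08D12.6 (*epic-2*) and C45B2.1 each fell by 2.46 in FEM animals (adjusted p = 8.43e-10 and 7.06e-09, limma). F54D10.8, which had few reads at most ages, was at 3.35, 3.33, 3.02, 3.52, and 3.23 on day 3 in GEM animals, against 6.23, 7.21, 8.18, 3.07, and 5.83 on day 1. It fell by 2.53 (SE 0.59, limma, adjusted p = 0.000314), but by 1.15, without passing, when day 1 was taken as 49 h alone.

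The change from day 1 to day 3 differed between the strains for 40 of the 100 genes. For 19 the FEM change was the higher one (14.1% of all genes), for 21 it was the lower one (37.9%), and 60 did not pass. The median of FEM minus GEM was 0.12, against -0.30 over all genes. Under quantile normalization 35 were higher and 14 lower, and under median centering 37 and 15, with all-gene medians of 0.16 and 0.09. Without the 2 GEM libraries of day 1 that stood apart, 18 were higher and 20 lower. R03G8.6 (X, 13094552 to 13100510) was at 7.56 to 8.17 on day 3 in FEM animals (median 7.70), against 8.90 to 9.52 on day 1 (median 9.31), and at 7.34, 7.37, 8.20, 7.24, and 7.31 on day 3 in GEM animals, against 0.00, 1.73, 0.00, 4.75, and 4.67 on day 1. The strains thus reached similar levels from opposite sides, and the changes differed by -6.31 ± 0.52 (SE, limma, adjusted p = 6.99e-12). C35B1.4 (IV, 4079814 to 4080146) was near its day 3 level in FEM animals from the start, at 10.52 to 10.69 on day 3 against 10.03 to 11.48 on day 1, but in GEM animals it was at 10.72, 10.39, 11.12, 10.79, and 10.37 on day 3, against 2.67, 4.44, 0.00, 6.36, and 6.68 on day 1. Its changes differed by -6.34 ± 0.55 (SE, limma, adjusted p = 2.15e-11). In the other direction, C26B9.7 (X, 5342307 to 5342848) was at 5.76 to 7.27 on day 3 in FEM animals, against 0.00 to 6.43 on day 1, and at 6.62, 6.45, 6.68, 6.38, and 6.92 in GEM animals, against 8.24, 8.53, 8.21, 4.49, and 7.14. Its difference was 3.04 ± 0.71 (SE, limma, adjusted p = 0.00055). F11A5.17 followed at 2.61 ± 0.78 (adjusted p = 0.00526), and F54D10.8 at 2.09 ± 0.80 (adjusted p = 0.0277). Both had few reads, and F54D10.8 was at 1.4 and did not pass without GEM 49 h replicate 2.

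**Figure D4:**
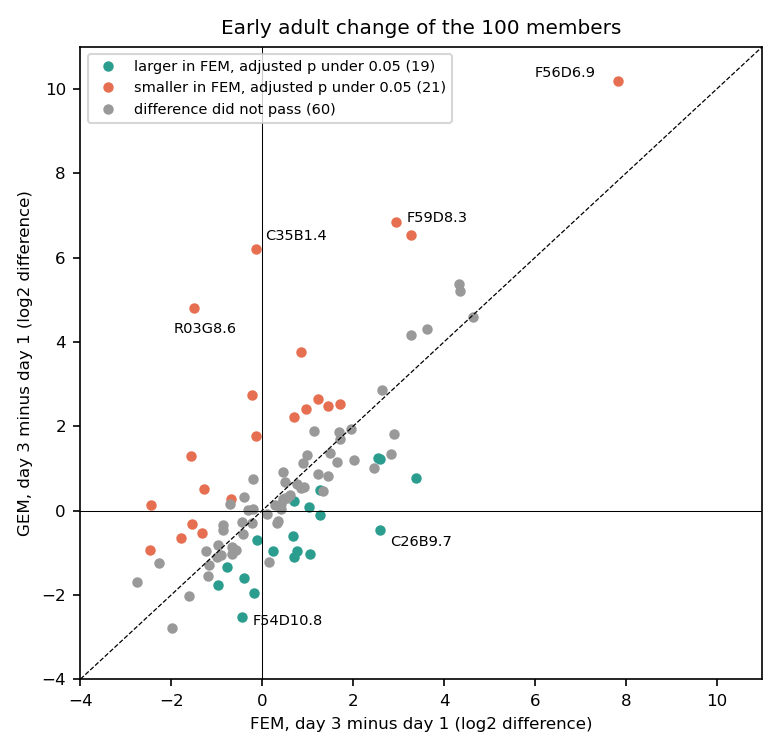
Difference between day 3 and day 1 (log2) in FEM animals (x axis) and GEM animals (y axis) for each of the 100 genes, colored by whether the FEM change was larger (19), smaller (21), or not distinguished from the GEM change (60) by limma. The dashed line marks equal change, and F56D6.9 lies at the upper right with R03G8.6 and C35B1.4 high on the left.

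Within day 1, the 8 h between 41 and 49 h follow the last molt. In FEM animals 37 of the 100 genes were higher at 49 h than at 41 h (23.2% of all genes), 11 were lower (12.6%), and 52 did not pass, with a median of 0.42 against 0.16 over all genes. In GEM animals 30 were higher (11.9% of all genes), 8 were lower (8.07%), and 62 did not pass, with a median of 0.52 against -0.02. The 8 molting markers averaged 7.42 to 8.32 in FEM animals at 49 h, against 10.53 to 10.67 at 41 h. In GEM animals they averaged 9.12 in replicate 1 and 11.27 in replicate 2 at 49 h, against 12.39 to 12.74 at 41 h, so the GEM libraries of 49 h differ from each other in these markers, and their part in the result was not tested. Without GEM 49 h replicate 1, 17 genes of the list were higher and 3 lower, and without GEM 41 h replicate 3 as well, 17 and 1. A limma fit to the GEM libraries of 41 and 49 h alone called 3 higher and 0 lower (0.638% and 0.0355% of all genes), with 31 higher and 6 lower at an unadjusted p under 0.05, and in it C11E4.7 passed while C45B2.1, W06G6.17, C26B9.7, F54D10.8, and R07E3.6 did not.

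T13F3.6 rose in both strains within these 8 h. It stood at 12.25, 13.14, and 12.34 at 49 h in FEM animals, against 7.44, 9.13, and 8.96 at 41 h, and at 11.67 and 11.06 in GEM animals, against 8.02, 7.86, and 7.40. The differences were 4.06 ± 0.37 (SE, limma, adjusted p = 4.73e-10) and 3.61 ± 0.41 (adjusted p = 8.23e-08). C45B2.1 was at 13.72 and 12.42 in GEM animals at 49 h, against 5.96, 6.02, and 7.93 at 41 h, a difference of 6.43 ± 0.44 (SE, limma, adjusted p = 1.56e-12). In FEM animals it was at 11.66, 11.79, and 11.80, against 10.00, 10.14, and 10.50, with a difference of 1.53 ± 0.40 (adjusted p = 0.00243). W06G6.17 and C11E4.7 rose by 6.04 ± 0.58 and 4.77 ± 0.21 in GEM animals (SE, limma, adjusted p = 3.12e-09 and 2.86e-17). C26B9.7 moved the other way, at 1.92, 0.00, and 3.90 at 49 h in FEM animals, against 6.43, 5.63, and 6.03 at 41 h, and fell by 4.09 (SE 0.67, limma, adjusted p = 1.15e-05). In GEM animals it was at 4.49 and 7.14, against 8.24, 8.53, and 8.21, and fell by 2.51 (adjusted p = 0.016), but by 1.18 without replicate 1 of 49 h, when it no longer passed. F54D10.8 likewise fell by 2.76 in GEM animals (adjusted p = 0.0176) and by 1.38, without passing, in the absence of that library. R07E3.2 (*idpa-3*) fell by 2.56 in FEM animals (SE 0.31, limma, adjusted p = 1.06e-07), and F55F3.4 by 2.74 (SE 0.63, adjusted p = 0.000718), or by 1.79 without FEM 49 h replicate 1. R07E3.6, less than 20 kb from R07E3.2 on the X chromosome, fell by 2.49 in GEM animals (SE 0.42, adjusted p = 5.01e-05), or by 1.27 without GEM 49 h replicate 1, and by 2.05 in FEM animals (SE 0.37, adjusted p = 4.67e-05).

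Averaged over days 1 to 3, more of the genes were lower in FEM than in GEM animals. The level was lower in FEM animals for 50 of the 100 (25.3% of all genes) and higher for 22 (42.9%), and 28 did not pass, with a median of -0.33 against 0.12 over all genes. Under quantile normalization 76 were lower and 10 higher, and under median centering 81 and 10, with all-gene medians of -0.46 and -0.63. Of the calls among the 100 genes, 30.6% were higher in FEM animals as deposited, 11.6% under quantile normalization, and 11% under median centering, against 62.9%, 27.4%, and 21.5% of the calls among all genes. The germline markers also differed between the strains over these ages. By group mean the sperm markers were at 8.81 to 11.01 in FEM animals, against 3.0 to 5.48 in GEM animals. The oocyte markers were at 8.01 to 9.53 in FEM animals. In GEM animals they were below this at 41 h (4.04) and above it at 89 h (12.74). The part of these markers was not tested.

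The largest shortfalls in FEM animals belonged to neighbors on chromosome IV. F55G11.2 was at 4.85 to 7.76 over days 1 to 3 in FEM animals (median 6.17, n = 17), against 8.34 to 9.58 in GEM animals (median 9.18, n = 16), without overlap, and differed by -2.86 ± 0.21 (SE, limma, adjusted p = 3.85e-14). F55G11.4 was at 8.21 to 11.02 in FEM animals (median 8.97), against 9.84 to 13.85 in GEM animals (median 12.08), and differed by -2.81 ± 0.19 (adjusted p = 1.00e-14). F55G11.8 was at 4.20 to 8.43 (median 6.45) against 7.70 to 9.48 (median 8.66) and differed by -2.01 ± 0.22 (adjusted p = 9.06e-10). These genes and K10D11.2 lie within 19.2 kb (IV, 12962808 to 12981991), and their coding sequences are of nearly the same length, at 1023 bases for the F55G11 genes and 1020 for K10D11.2. K10D11.2 did not show the strain difference (0.43 ± 0.23, SE, limma, adjusted p = 0.0996). Whether reads were shared between them was not tested. Their courses also differed before day 10. F55G11.4 was highest in FEM animals on days 4 and 5, at 11.43, 11.54, 11.44, and 13.56, before 7.79 and 7.13 at 257 h, while F55G11.8 was highest at 41 h, at 8.15, 8.18, and 8.43. In the other direction, R03G8.6, C43D7.7, and C35B1.4 were higher in FEM animals by 2.86, 2.80, and 2.66 (adjusted p = 6.27e-14, 2.54e-10, and 1.77e-12, limma), and for R03G8.6 and C35B1.4 the strains lay farthest apart at 41 h by group mean.

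Of the 100 genes, 34 lie on chromosome V, 25 on X, 24 on IV, 11 on II, 5 on III, and 1 on I, whereas of the clone-named genes past the minimum 21% lie on V, 14.0% on X, 17.6% on IV, 17.6% on II, 14.3% on III, and 15.5% on I. Another gene of the list lay within 20000 bases for 18 genes, in 8 clusters. The same count was not made for other genes, so it does not show whether the list is clustered. The F55G11 group is the largest, and with K08D8.4, K08D8.5, and ZK896.5 there were 7 genes of the list in a stretch of 105 kb (IV, 12876950 to 12981991). The bounds of this stretch were set by hand, and ZK896.5 has no other gene of the list within 20000 bases. All 7 fell on day 10 by the rule, but by 2.14 to 4.53 in FEM animals and 2.25 to 3.88 in GEM animals. The protein-coding genes of the list had a median coding length of 360.5 codons, against 288 for the clone-named genes and 348 for all genes tested.

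Non-coding genes made up 8 of the 100, against 4.20% of the clone-named genes, and all 8 share exonic bases with a gene on the other strand. Reads were mapped as non-directional, and for such a pair the deposited counts do not show which gene a read came from. T27A10.8 (X, 3572379 to 3572566) lies with 171 of its 188 bases in *vit-3*, and F59D8.3 (X, 3563816 to 3563991) with 150 of 176 in *vit-4*, both of which encode vitellogenins, the yolk proteins that the intestine makes. D2023.15 overlaps the cuticle collagen gene *col-158* (149 of 150 bases), C05E11.15 the ammonium transporter gene *amt-1* (156 of 221), Y73B6BL.275 the acid phosphatase gene *acp-6* (47 of 117), and F36G9.18 the protein-coding gene F36G9.7 (129 of 129). F22H10.9 overlaps a tRNA gene (82 of 94), and F01G12.16 overlaps the non-coding gene F01G12.14 (209 of 277) and 14 bases of the type IV collagen gene *let-2*.

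Where the partner was measured and shared many bases, the non-coding gene followed it. T27A10.8 was at 4.37 and 4.26 in FEM animals at 257 h, against 9.22, 9.09, 8.55, and 8.58 at 117 and 137 h, and *vit-3* at 11.56 and 11.11, against 16.53, 16.63, 15.83, and 15.58. Over the 33 libraries of 41 to 97 h the levels of each pair correlated at r = 0.94 (T27A10.8 and *vit-3*), 0.92 (F59D8.3 and *vit-4*), 0.98 (C05E11.15 and *amt-1*), 0.99 (Y73B6BL.275 and *acp-6*), 0.97 (D2023.15 and *col-158*), and 0.96 (F36G9.18 and F36G9.7), as a description over libraries that share strains and ages. The non-coding gene held a small part of its partner's normalized count, with a median over libraries of 0.615% for *vit-3*, 0.918% for *vit-4*, 2.65% for *col-158*, 3.91% for *acp-6*, 8.56% for *amt-1*, and 11.1% for F36G9.7. The partners were lower on day 10 as well, by -4.81 in FEM and -3.59 in GEM animals for *vit-3*, -4.99 and -3.29 for *vit-4*, -4.51 and -3.29 for *amt-1*, -3.82 and -3.55 for *acp-6*, -3.16 and -2.37 for *col-158*, and -1.72 and -1.21 for F36G9.7. The GEM libraries of day 1 that stood apart for such genes departed from this. GEM 49 h replicate 1 held T27A10.8 at 1.79 and F59D8.3 at 1.4 beside *vit-3* at 15.00 and *vit-4* at 14.92, whereas replicate 2 held them at 6.10 and 6.22 beside 13.04 and 12.64. D2023.15 was at 1.15 beside *col-158* at 8.86 in GEM 49 h replicate 1 and at 0.00 beside 6.97 in GEM 41 h replicate 3, although it was also at 0.00 beside 6.35 in FEM 41 h replicate 2. The source of this departure was not tested.

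**Figure D5:**
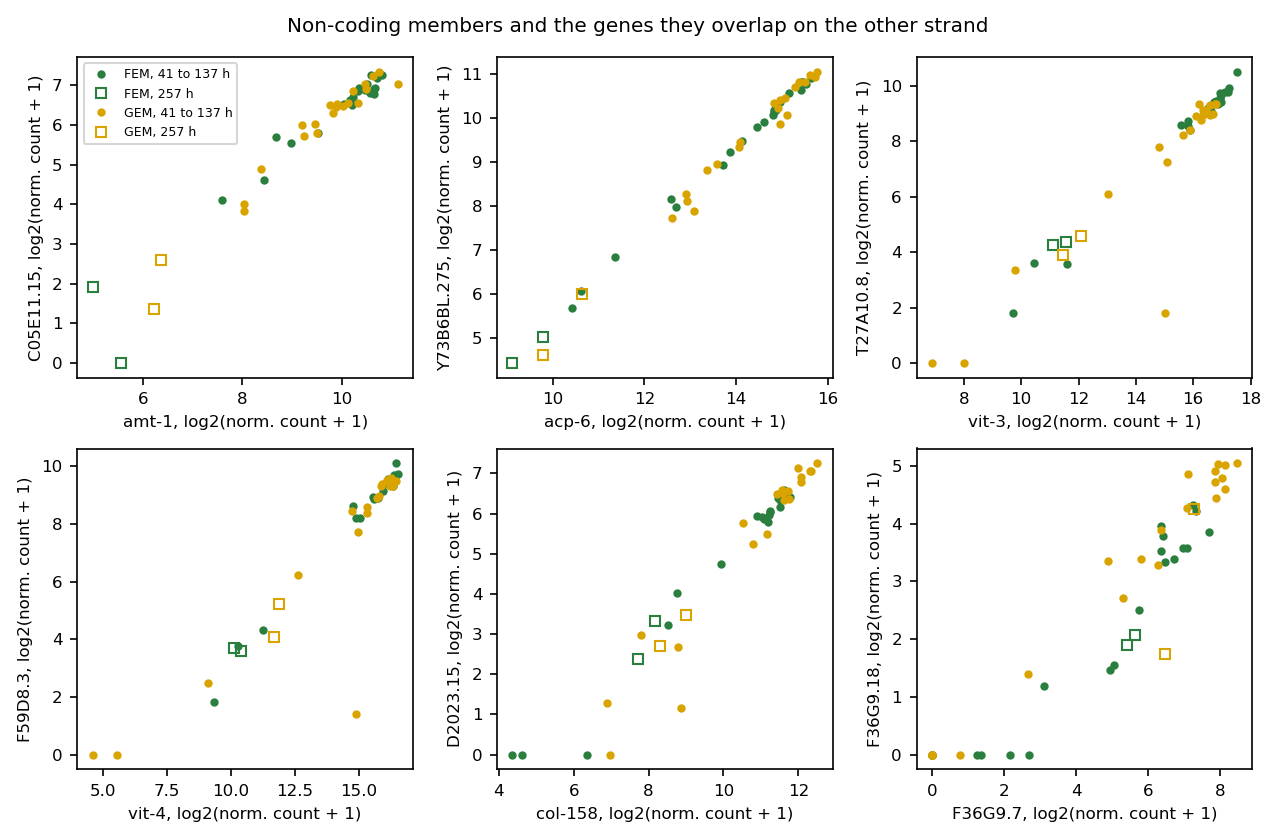
Level of 6 non-coding genes of the list (y axes) against the gene that each overlaps on the other strand (x axes), both as log2(normalized count + 1), with a point for each of the 45 libraries and open squares for 257 h. The pairs lie along lines, with r from 0.92 to 0.99 over the 33 libraries of 41 to 97 h, and the points far below the lines for *vit-3* and *vit-4* are GEM 49 h replicate 1.

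The non-coding genes carried some of the strongest early changes. Of the 8, 7 were higher on day 3 than on day 1 in both strains (29% of all genes), and F01G12.16 passed in neither. F59D8.3 was at 8.19 to 9.57 on day 3 in FEM animals (median 9.46), against 1.82 to 9.51 on day 1 (median 6.59), and at 8.96, 9.30, 9.44, 8.89, and 9.32 on day 3 in GEM animals, against 0.00, 2.50, 0.00, 1.4, and 6.22. It rose by 2.95 ± 0.49 in FEM and 6.85 ± 0.54 in GEM animals (SE, limma, adjusted p = 4.94e-06 and 4.21e-13), a difference of -3.90 ± 0.73 between strains (adjusted p = 2.92e-05). Without the 2 GEM libraries that stood apart, the difference was -2.49 (adjusted p = 0.000357, limma). The FEM range on day 1 was wide because F59D8.3 was at 9.42, 9.51, and 8.87 at 49 h, against 1.82, 4.31, and 3.77 at 41 h, a rise of 5.97 ± 0.69 within 8 h (SE, limma, adjusted p = 4.06e-08). T27A10.8 rose by 6.20 ± 0.68 over the same step (adjusted p = 1.70e-08) and by 6.54 ± 0.54 in GEM animals between day 1 and day 3 (adjusted p = 1.00e-12). Without GEM 49 h replicate 1 the GEM rises of T27A10.8 and F59D8.3 were 5.46 and 5.64, and without replicate 2 of that age 7.62 and 8.05. D2023.15 rose by 4.34 ± 0.33 and 5.22 ± 0.37 between day 1 and day 3 in FEM and GEM animals (SE, limma, adjusted p = 7.51e-13 and 2.35e-14). On day 1 D2023.15 was at 0.00 and 1.15 in the GEM libraries that stood apart, against 2.67, 2.99, and 1.28 in the other GEM libraries. Among the 92 protein-coding genes, 43 were higher and 26 lower in FEM animals (38.6% and 20.5% of all genes). In GEM animals 34 were higher and 29 lower (50.5% and 21.5%).

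Of the protein-coding genes, 30 share exonic bases with another annotated gene and 11 share at least 10% of theirs. T13F3.6 lies with all 553 of its exonic bases within T13F3.8 on the other strand. On day 10 T13F3.8 differed by -0.47 in FEM and 1.02 in GEM animals, and T13F3.6 by -3.62 and -4.05. In GEM animals T13F3.8 averaged 5.38 at 117 h and 5.49 at 137 h, below T13F3.6. C43D7.7 shares 439 of 564 exonic bases with *srh-208* on the other strand. In FEM animals *srh-208* averaged 0.0 at 117 and 137 h, where C43D7.7 had a mean normalized count of 19.3. T25F10.1 shares 231 of 285 exonic bases with *clik-1*, which was lower as well, by -2.21 in FEM and -1.36 in GEM animals. How reads were assigned within these pairs was not tested. On day 1 T25F10.1 was at 3.14 in GEM 41 h replicate 3 and 2.47 in GEM 49 h replicate 1, against 8.25, 8.56, and 8.63 in the other GEM libraries. The strain difference in its early change, -2.86 (adjusted p = 0.0146, limma), was -0.44 (adjusted p = 0.304) without those 2 libraries and no longer passed. In all, 62 genes of the list share exonic bases with no other gene. In FEM animals 28 of them were higher and 18 lower on day 3 than on day 1 (38.6% and 20.5% of all genes). In GEM animals 23 were higher and 21 lower (50.5% and 21.5%). Of 11 short piRNA loci inside genes of the list that the table holds, 5 averaged 1 or more as deposited. One of these, 21ur-15387 within F55G11.4, differed by -4.44 in FEM and -2.32 in GEM animals on day 10, and F55G11.4 by -4.53 and -2.25.

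Over the 33 libraries of 41 to 97 h the 100 genes were only loosely alike. The correlation of a gene with the mean standardized profile of the list ranged from -0.47 to 0.90, with a median of 0.50, and 16 genes were below 0. Among 8047 genes with a given name, the 8 whose levels were most like that mean profile were *clec-49* (r = 0.91), *lec-6* (0.90), *asah-2* (0.89), *clec-50* (0.87), *drd-1* (0.86), *glt-1* (0.86), *kynu-1* (0.86), and *cdr-6* (0.85). Their differences between day 10 and days 4-5 did not enter this likeness. They ranged from -4.64 (*clec-49*) to -0.86 (*glt-1*) in FEM animals and from -3.18 (*clec-50*) to -0.26 (*cdr-6*) in GEM animals. The medians over all genes were -0.04 and 0.26. The profile itself is that of genes chosen by their late fall, so these values are a description only. The clec genes encode C-type lectin domain proteins, and *kynu-1* encodes kynureninase, an enzyme of tryptophan breakdown.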

How the data were processed

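Per the labels and the study's methods, RNA of whole worms was selected on oligo(dT) beads, and the authors trimmed the reads with Trim Galore 0.4.4, mapped them to WBCel235 with HISAT2 2.1.0 as non-directional single-end reads, counted reads per gene in SeqMonk with isoforms merged, and normalized the counts with DESeq2. The authors deposited the natural log of the normalized count plus 1, with 2 decimals. The base was read from the values. With base e, 90.6 to 100% of the low values per library fell on multiples of the value of 1 read (tolerance 0.006 of the count plus 1), which also gave the read totals. Rounding hides the counts of abundant genes, so no count test was used.

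Values were divided by the natural log of 2, giving log2. The 16925 genes that averaged 1 or more as deposited were fitted together in limma 3.58.1 (R 4.3.3), with 18 group means and eBayes with trend. Python 3.11.15, numpy 2.4.6, pandas 2.3.3, and matplotlib 3.10.9 were used for the rest. No column was unmapped (0). The genes, lists, and tests were chosen with earlier results of these data known. Named are the 10 lowest genes, those at the edge, the 3 largest changes in each direction per contrast, the 5 most abundant, the genes that the annotation names, and the 8 most alike. Of the gene names in the table, 25381 matched Ensembl 115, all 100 listed genes included. Sequences were not used here, so promoter words and protein identity were not analysed. The labels give no batch, and replicates were numbered in accession order. The study calls its samples biological replicates, but the labels do not say how they were separated, and p-values measure the spread between these samples. Alternatives were 2 other filters, 2 scalings, a pseudocount of 8, no trend, smaller fits, other definitions of day 1, leaving out each library, and, added after seeing the data, leaving out 2 GEM libraries together. The tests were checked on simulated data.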

Additional observations from a re-analysis of the deposited data

Results flagged for a closer look

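The early adult change (day 3 minus day 1) of 40 of the 100 genes differed between FEM and GEM animals by limma's interaction test, with 19 higher (14.1% of all genes) and 21 lower (37.9%) in FEM animals. The value of FEM minus GEM was -6.34 for C35B1.4, -6.31 for R03G8.6, and -3.90 for F59D8.3. All of these rose in GEM animals. In FEM animals F59D8.3 rose by less, R03G8.6 fell, and the change of C35B1.4 did not pass. The value was 3.04 for C26B9.7, 2.61 for F11A5.17, and 2.09 for F54D10.8. F59D8.3 lies across the strand from *vit-4*, and its value was -2.49 without the 2 GEM libraries of day 1 that stood apart for such genes. F54D10.8 had few reads.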

How the results depend on the processing

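No paired analysis was possible because the labels carry no replicate number shared between groups, and do not say whether the serial numbers in the titles mark libraries made together. The genes with a higher FEM change between day 1 and day 3, 19 as deposited, were 35 under quantile normalization and 37 under median centering, and for the level over days 1 to 3 those higher in FEM animals were 10 and 10 and those lower 76 and 81. A fit to the GEM libraries of 41 and 49 h alone called 3 higher and 0 lower. Leaving out GEM 41 h replicate 3 and GEM 49 h replicate 1 together, chosen after seeing the data, gave 17 higher and 1 lower for GEM at 49 h, and the GEM falls of C26B9.7 (-1.24), R07E3.6 (-1.31), and F54D10.8 (-0.89) no longer passed. Leaving out each library in turn gave 17 to 31 higher and 3 to 9 lower for GEM at 49 h (the lowest of each without GEM 49 h replicate 1), and 30 to 40 higher and 7 to 11 lower for FEM at 49 h (7 without FEM 41 h replicate 2 or 3). No tested difference of a named gene changed sign in any setting run. F54D10.8 lost its call in several settings, with an interaction of 1.4 to 2.78 when libraries were left out. Of the 100 genes, 78 remained in the list under quantile normalization, 96 under median centering, 83 with a pseudocount of 8, 91 with a minimum mean of 3, and 79 to 98 without one of the 12 late libraries (79 without GEM 257 h replicate 2). With 2 libraries per strain on day 10, low genes are limited by few reads.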
